A study of Mus musculus with 14 samples.

Results

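Cells hold their cholesterol steady by making it, by taking it up and by sending it out, and the genes described here carry out or control these steps and the related synthesis of fatty acids. The genes were chosen by name, as 42 members in 7 groups by role: the mevalonate pathway, the sterol pathway, the control of SREBP, intracellular transport and storage, efflux and oxidation, the LXR arm, and fatty acid synthesis. Earlier results of these data were known when they were chosen. Shares of all tested genes are therefore given beside their counts for scale and not as a test. Of the 42, 39 have a row among the 13866 genes of the deposited counts, and 38 of these passed the filter on low counts, as did 11852 of all genes. The expression of Idi1, Fdft1 and Soat1 was not analysed here. Nr1h3 (LXR alpha) held 0 to 9 counts per library and was not tested.

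The brains came from WT mice of the strain C57BL/6JOlaHsd and from MyTrMaSt null mice, which lack Myd88, Trif, Mavs and Tmem173 (STING), 4 adaptors of innate immune receptors upstream of type I interferon. Mice received conduritol B-epoxide (CBE), an irreversible inhibitor of acid beta-glucosidase that induces a form of neuronopathic Gaucher disease, at 100 mg/kg, or PBS, and were examined at 19 days of age. The WT groups had 3 libraries each after PBS and CBE, and the MyTrMaSt groups had 3 after PBS and 5 after CBE, with 1 mouse per library. CBE blocks the enzyme chemically in all cells and is not a mutation of its gene. The 4 adaptors are missing in every cell of the MyTrMaSt mice, so a genotype difference is not tied to a cell type.

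SREBP transcription factors are held in the endoplasmic reticulum by Scap and the Insig proteins when sterols are plentiful. When sterols fall, Scap escorts SREBP to the Golgi, where it is cut, and the released part switches on the genes of cholesterol and fatty acid synthesis. LXR receptors respond to oxysterols in the opposite state and switch on efflux pumps such as Abca1 and Abcg1, as well as Srebf1 and Mylip. In the brain, cholesterol does not cross the blood-brain barrier, so nearly all of it is made locally, much of it by oligodendrocytes when myelin forms in the weeks after birth, and neurons clear it through Cyp46a1.

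The libraries held between 1290616 and 3704691 counts, which limits the precision of the members with few counts. WT + PBS replicate 1 held the fewest and stood apart, with a mean correlation of 0.889 with the other libraries of its group, against 0.934 and 0.935 for these and 0.961 to 0.981 within the other groups (log2 CPM over all tested genes). It was high for some members and low for others, so the value without it is given where leaving it out changed a call or moved a value markedly. Xist, a transcript of female cells, had 0 counts in each WT + PBS library, whereas the WT + CBE libraries had 1 to 47. It had 32 to 46 counts in the MyTrMaSt + PBS libraries and 0 to 39 in MyTrMaSt + CBE. Sex is thus partly mixed with CBE in WT and fully mixed with genotype after PBS, which also enters the interaction. Labels do not say whether mice came from separate litters. The paper gives Envigo as the source of the WT mice and refers to an earlier report for the MyTrMaSt line. Source and genotype thus cannot be told apart in the comparisons between genotypes. MARSseq counts the 3' ends of transcripts, so a level follows the number of transcripts and not their length. Levels are given as CPM, read counts scaled to a common library size with TMM factors, replicate by replicate in the order of their numbers. Changes are given as log2 fold changes from the edgeR quasi-likelihood fit with an SE. The SE was derived as the size of the log2 fold change over the square root of its F statistic, so it and the intervals are approximate. A gene is called changed when its Benjamini-Hochberg adjusted p over all tested genes is below 0.05, and a DEG when it also differs at least 2-fold.

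After CBE, 7 of the 16 tested genes of cholesterol synthesis fell in WT and 6 in MyTrMaSt, with Hmgcs1 at the smallest adjusted p in both. Of the 4 genes of efflux and oxidation, Abca1 and Abcg1 rose in WT, and Ch25h, which passed the filter on low counts only through its CBE libraries, was called higher in both genotypes. In WT, 10 of the 38 tested members fell and 5 rose, where 3.89% of all tested genes fell and 6.7% rose. In MyTrMaSt mice 8 fell and 2 rose, against 2.44% and 5.32% of all tested genes. Without Ch25h, 4 rose in WT and 1 in MyTrMaSt. With the Xist level as a covariate, only Hmgcs1, Tm7sf2 and Ch25h of the 15 were called in WT, where 1.05% of all tested genes then fell and 4.67% rose. The adjusted p was then 0.0715 for Mvk, 0.0632 for Fdps, 0.0989 for Sqle, 0.143 for Msmo1, 0.116 for Dhcr7, 0.111 for Abca1 and 0.0586 for Abcg1. In MyTrMaSt 10 members were called with that covariate (8 lower and 2 higher), against 1.58% and 4.47% of all tested genes. Of the members called with all libraries, 6 fell and 2 rose at least 2-fold in WT (1.21% and 5.2% of all tested genes), and 5 fell and 1 rose at least 2-fold in MyTrMaSt (0.658% and 3.23%). Those that rose were Ch25h and Abca1 in WT and Ch25h alone in MyTrMaSt. All WT + CBE libraries lay below all WT + PBS libraries for 15 members and above them for 5, which held for 12.8% and 15.1% of all tested genes. In MyTrMaSt mice these numbers were 15 and 4 members, against 10.7% and 11.8% of all tested genes. Ch25h is among the members that lay above in both genotypes.

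**Figure D1:**
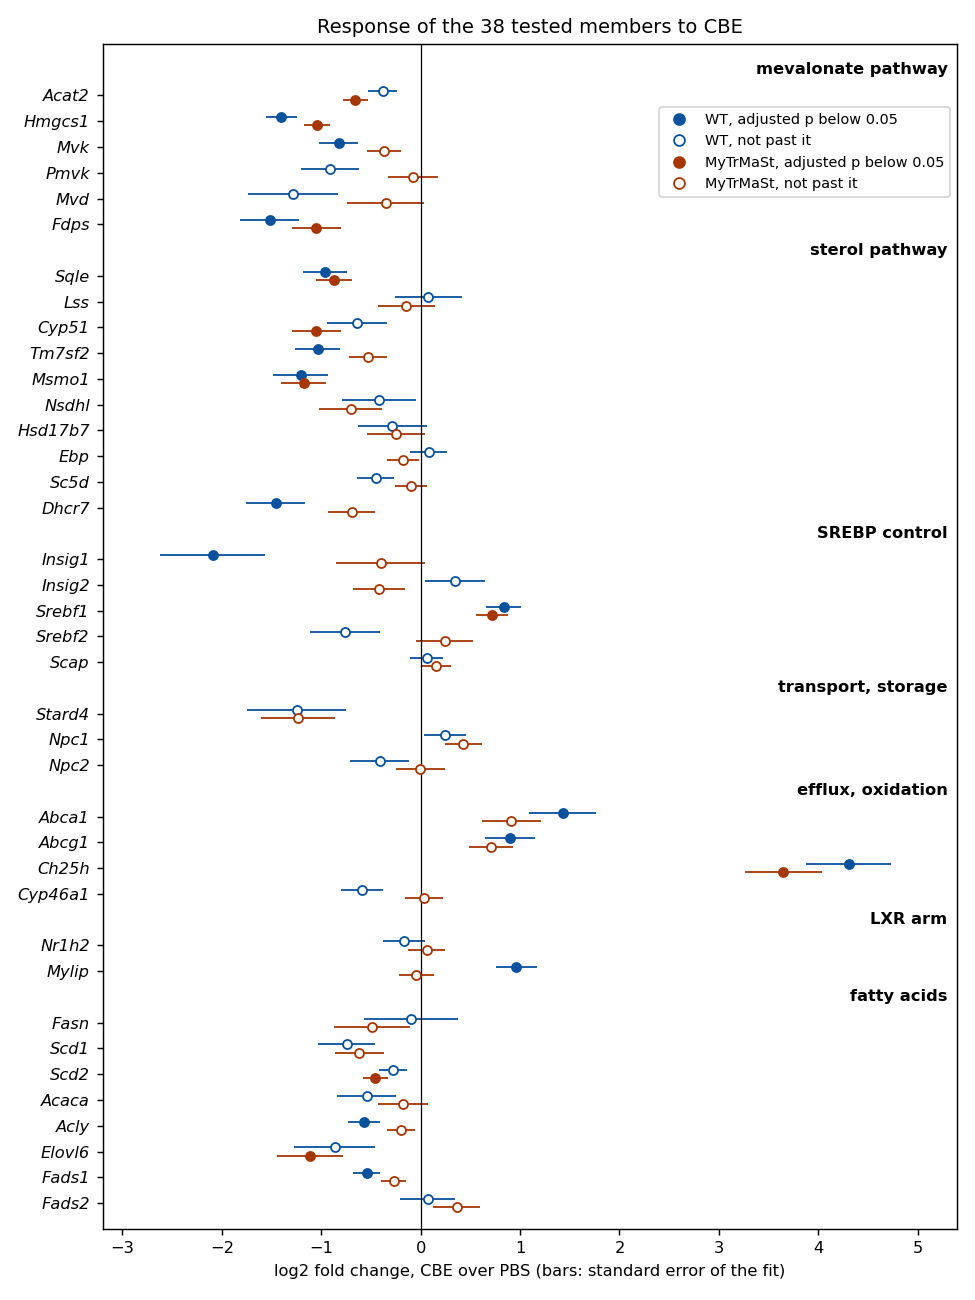
Log2 fold change of CBE over PBS (x axis) of the 38 tested members (rows, grouped by role), in WT (blue) and MyTrMaSt (brown), with the SE as bars and filled points where the adjusted p was below 0.05. In MyTrMaSt, all 16 synthesis genes lay below 0, while Ch25h lay at 4.30 in WT and 3.65 in MyTrMaSt.

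The 16 tested genes of the mevalonate and sterol pathways made up 7 of the 10 members that fell in WT and 6 of the 8 in MyTrMaSt. Their median log2 fold change was -0.87 in WT, with 14 of 16 below 0, and -0.59 in MyTrMaSt, with 16 of 16 below 0. None rose in either genotype. Over all tested genes the median was -0.02 in WT and 0.01 in MyTrMaSt. Called in both were Hmgcs1, Fdps, Sqle and Msmo1, in WT alone Mvk, Tm7sf2 and Dhcr7, and in MyTrMaSt alone Acat2 and Cyp51, and none of these was called for the interaction between genotype and CBE. Without WT + PBS replicate 1, Acat2 and Cyp51 were called in WT as well and Tm7sf2 and Dhcr7 in MyTrMaSt as well. Of these 5 only Mvk was then called in a single genotype, and its adjusted p in MyTrMaSt was 0.0531, just above the threshold. Oligodendrocyte markers fell as well (7 of 8 in WT and 1 of 8 in MyTrMaSt, or 8 and 3 of 8 without WT + PBS replicate 1), and their part in these results was not tested. In bulk tissue, fewer cells of a type and less RNA per cell cannot be told apart.

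In the mevalonate pathway, which leads from acetyl-CoA to squalene, the clearest change was that of Hmgcs1, the HMG-CoA synthase (chromosome 13 from 119690379 to 119708260, mm10). Hmgcs1 stood at 481, 369 and 472 CPM in the WT + PBS group and at 169, 158 and 174 CPM in the WT + CBE group. In MyTrMaSt it stood at 427, 404 and 424 CPM after PBS and at 193, 181, 205, 254 and 182 CPM after CBE. Every CBE library lay below every PBS library of either genotype. The log2 fold change was -1.40 ± 0.15 (SE, FDR-adjusted p 4.46e-06) in WT, a 2.64-fold decrease, and -1.04 ± 0.13 (SE, FDR-adjusted p 4.95e-05) in MyTrMaSt, a 2.06-fold decrease.

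Fdps, the farnesyl diphosphate synthase (chromosome 3 from 89093588 to 89101959), read 189.5, 76.8 and 70.9 CPM in the WT + PBS group and 34.6, 39.0 and 41.0 CPM in the WT + CBE group. MyTrMaSt mice had 97.4, 84.0 and 75.4 CPM after PBS and 40.1, 38.7, 41.3, 52.2 and 34.8 CPM after CBE. Groups did not overlap in either genotype, but WT + PBS replicate 1 was far above the other WT + PBS libraries. Its log2 fold change was -1.52 ± 0.29 (SE, FDR-adjusted p 0.0019) in WT, -0.96 (adjusted p 0.000487) without that library, and -1.05 ± 0.25 (SE, FDR-adjusted p 0.0125) in MyTrMaSt. Fdps shares 1124 exonic bases with Gm43738 on the same strand, so reads there may have been split or dropped. Acat2, the acetyl-CoA acetyltransferase that starts the pathway, had 64.1, 79.6 and 80.6 CPM in the WT + PBS group and 54.4, 62.0 and 57.2 CPM in the WT + CBE group. In MyTrMaSt, Acat2 had 98.4, 87.7 and 89.8 CPM after PBS and 60.4, 59.0, 54.3, 57.1 and 60.3 CPM after CBE. It fell by 0.66 ± 0.12 (SE, FDR-adjusted p 0.00286) on the log2 scale in MyTrMaSt, whereas the WT value was -0.38 ± 0.15 (SE, FDR-adjusted p 0.107), -0.46 (adjusted p 0.0267) without WT + PBS replicate 1, again with no overlap between PBS and CBE.

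Of the kinases and the decarboxylase between them, Mvk (mevalonate kinase) fell by 0.82 ± 0.19 (SE, FDR-adjusted p 0.00988) on the log2 scale in WT and gave -0.37 ± 0.17 (SE, FDR-adjusted p 0.19) in MyTrMaSt. Without WT + PBS replicate 1, Mvk gave -0.59 (adjusted p 0.02) in WT and -0.36 (adjusted p 0.0531) in MyTrMaSt. Pmvk (phosphomevalonate kinase) gave -0.91 ± 0.29 (SE, FDR-adjusted p 0.0516) in WT and -0.08 ± 0.25 (SE, FDR-adjusted p 0.893) in MyTrMaSt. Mvd (mevalonate diphosphate decarboxylase) gave -1.28 ± 0.45 (SE, FDR-adjusted p 0.0827) and -0.35 ± 0.39 (SE, FDR-adjusted p 0.618). The WT values of both rested on WT + PBS replicate 1, where Pmvk stood at 122 CPM against 47.8 and 48.1 CPM in the other WT + PBS libraries and Mvd at 98.4 CPM against 21.8 and 19.0 CPM. Without it they were -0.37 (adjusted p 0.212) and -0.25 (adjusted p 0.539).

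Promoters were compared because most of the synthesis genes lay below 0 after CBE. In the windows from 250 bases before to 50 bases after the start of each RefSeq transcript (GRCm38.p6), 33 of the 42 members and 15 of the 18 synthesis members could be matched. The SREBP element TCACNCCAC was found on either strand in 1.24% of all 32851 windows, and among the synthesis members only in Hmgcs1, where it starts 137 bases before the transcript start. The NF-Y box CCAAT, bound by the factor with which SREBP is known to act, was present in at least 1 window of 14 of the 15 synthesis members, against 41.1% of the 27025 genes with a window. The exception was Acat2, which was called lower in MyTrMaSt. Boxes were also present in synthesis genes not called in either genotype with all libraries, such as Nsdhl (4), Hsd17b7 (3), Ebp (2), Mvd (2), Lss (1) and Sc5d (1). With 1 of the 8 fixed letters of the SREBP element allowed to differ, a search added after these matches were seen, 7 of the 15 synthesis members held a match, against 26.7% of genes. A match is a run of letters and not a site shown to be bound, and a missing match says only that these letters are not in the window. The windows below, the last 3 of them chosen after their matches were seen, show the SREBP element and NF-Y boxes in capitals. Hmgcs1 holds the SREBP element TCACCCCAC and 4 NF-Y boxes, Mvk and Msmo1 hold the most NF-Y boxes of the other called synthesis members with a window (5 and 3, while windows of Fdps and Sqle were not used here), and Abca1, taken as the first of the efflux group by name, holds neither motif. Of the other efflux and oxidation genes with a window, Ch25h holds neither and Cyp46a1 holds 1 NF-Y box, and Mylip of the LXR arm, which rose in WT, holds 3.
Hmgcs1 chr13:119690101-119690400 (+): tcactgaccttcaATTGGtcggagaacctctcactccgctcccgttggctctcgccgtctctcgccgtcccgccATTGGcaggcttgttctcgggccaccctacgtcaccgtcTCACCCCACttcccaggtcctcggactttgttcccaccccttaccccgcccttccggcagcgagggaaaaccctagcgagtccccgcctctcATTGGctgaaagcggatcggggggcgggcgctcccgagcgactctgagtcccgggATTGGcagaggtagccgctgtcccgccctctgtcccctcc
Mvk chr5:114444019-114444318 (+): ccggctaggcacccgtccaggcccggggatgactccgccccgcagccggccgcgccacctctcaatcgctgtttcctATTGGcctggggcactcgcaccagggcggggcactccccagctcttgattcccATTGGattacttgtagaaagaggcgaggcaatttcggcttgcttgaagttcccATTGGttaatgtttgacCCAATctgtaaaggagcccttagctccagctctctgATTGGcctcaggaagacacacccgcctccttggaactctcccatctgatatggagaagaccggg
Msmo1 chr8:64733529-64733828 (-): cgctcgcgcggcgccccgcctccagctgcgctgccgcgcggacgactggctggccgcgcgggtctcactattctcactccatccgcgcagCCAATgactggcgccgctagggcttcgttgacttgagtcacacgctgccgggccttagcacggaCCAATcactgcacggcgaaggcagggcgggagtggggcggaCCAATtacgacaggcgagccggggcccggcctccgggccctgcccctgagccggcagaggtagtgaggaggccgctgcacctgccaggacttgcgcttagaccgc
Abca1 chr4:53159846-53160145 (-): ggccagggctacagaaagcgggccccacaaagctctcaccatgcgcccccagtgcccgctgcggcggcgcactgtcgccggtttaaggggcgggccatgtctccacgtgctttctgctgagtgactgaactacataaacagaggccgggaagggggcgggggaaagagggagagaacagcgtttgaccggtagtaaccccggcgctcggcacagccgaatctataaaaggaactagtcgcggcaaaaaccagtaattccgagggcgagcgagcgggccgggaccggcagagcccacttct

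In the sterol pathway, which turns squalene into cholesterol, Sqle, the squalene epoxidase at its entry (chromosome 15 from 59315077 to 59331192), had 47.8, 87.9 and 76.8 CPM in the WT + PBS group and 42.2, 29.1 and 39.8 CPM in the WT + CBE group. MyTrMaSt mice had 105, 96.2 and 87.7 CPM after PBS and 47.1, 43.6, 52.7, 64.5 and 55.6 CPM after CBE. Both pairs of groups were separate, though WT + PBS replicate 1 was only slightly above the highest WT + CBE library. Its log2 fold change was -0.96 ± 0.22 (SE, FDR-adjusted p 0.00738) in WT and -0.87 ± 0.18 (SE, FDR-adjusted p 0.0056) in MyTrMaSt. Msmo1, the methylsterol monooxygenase (chromosome 8 from 64718139 to 64733792), had 21.7, 58.0 and 56.5 CPM in the WT + PBS group and 19.2, 22.5 and 19.9 CPM in the WT + CBE group. In MyTrMaSt it had 53.9, 71.6 and 72.9 CPM after PBS and 27.3, 27.0, 24.7, 35.5 and 32.1 CPM after CBE. The WT groups overlapped through WT + PBS replicate 1 and the MyTrMaSt groups did not. Its log2 fold change was -1.21 ± 0.27 (SE, FDR-adjusted p 0.0074) in WT, -1.48 (adjusted p 7.97e-06) without that library, and -1.18 ± 0.22 (SE, FDR-adjusted p 0.00281) in MyTrMaSt.

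Dhcr7, a reductase of the last steps (chromosome 7 from 143823145 to 143848410), had 55.0, 26.5 and 27.4 CPM in the WT + PBS group and 11.6, 15.0 and 10.8 CPM in the WT + CBE group. Its MyTrMaSt levels were 29.4, 33.5 and 27.5 CPM after PBS and 18.3, 13.9, 16.6, 26.6 and 18.8 CPM after CBE. PBS and CBE did not overlap in either genotype. The log2 fold change was -1.46 ± 0.29 (SE, FDR-adjusted p 0.00286) in WT, -1.10 (adjusted p 0.00307) without WT + PBS replicate 1, and -0.69 ± 0.24 (SE, FDR-adjusted p 0.0844) in MyTrMaSt, where it was -0.69 (adjusted p 0.00916) without the same library. Cyp51, the lanosterol demethylase, fell by 1.05 ± 0.25 (SE, FDR-adjusted p 0.0124) on the log2 scale in MyTrMaSt and gave -0.64 ± 0.30 (SE, FDR-adjusted p 0.204) in WT, where WT + PBS replicate 1 held 6 counts and the value without it was -0.88 (adjusted p 0.0149). Its last exon shares 166 bases with Akap9 on the opposite strand, and use of strand in the counting is not given in the sources used here. Opposite-strand overlaps of Hmgcs1 (557 exonic bases with Gm48342), Scap (985 with 5830462I19Rik) and Elovl6 (34 with Gm35986) lie outside the last exon of each member. Tm7sf2, a sterol reductase, fell by 1.04 ± 0.23 (SE, FDR-adjusted p 0.00562) on the log2 scale in WT and gave -0.53 ± 0.19 (SE, FDR-adjusted p 0.0988) in MyTrMaSt, -0.52 (adjusted p 0.0426) without WT + PBS replicate 1. It shares 532 exonic bases with Vps51 on the same strand, none of them in its last exon.

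The other 5 sterol genes were not called in either genotype. Nsdhl (a sterol dehydrogenase) gave -0.42 ± 0.38 (SE, FDR-adjusted p 0.547) in WT and -0.70 ± 0.32 (SE, FDR-adjusted p 0.185) in MyTrMaSt, and without WT + PBS replicate 1, in which it had 6 counts, it was called in both, at -0.79 (adjusted p 0.0108) and -0.70 (adjusted p 0.0037). Sc5d (a sterol desaturase) gave -0.45 and -0.10, Hsd17b7 (a ketosteroid reductase) -0.28 and -0.25, Lss (lanosterol synthase) 0.08 and -0.14, and Ebp (a sterol isomerase) 0.08 and -0.18, in WT and MyTrMaSt in turn. Without that library the WT values were -0.21 (adjusted p 0.433) for Sc5d, -0.54 (adjusted p 0.247) for Hsd17b7, -0.23 (adjusted p 0.55) for Lss and -0.08 (adjusted p 0.799) for Ebp. The last exon of Lss shares 193 bases with 4930483K19Rik on the opposite strand.

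**Figure D2:**
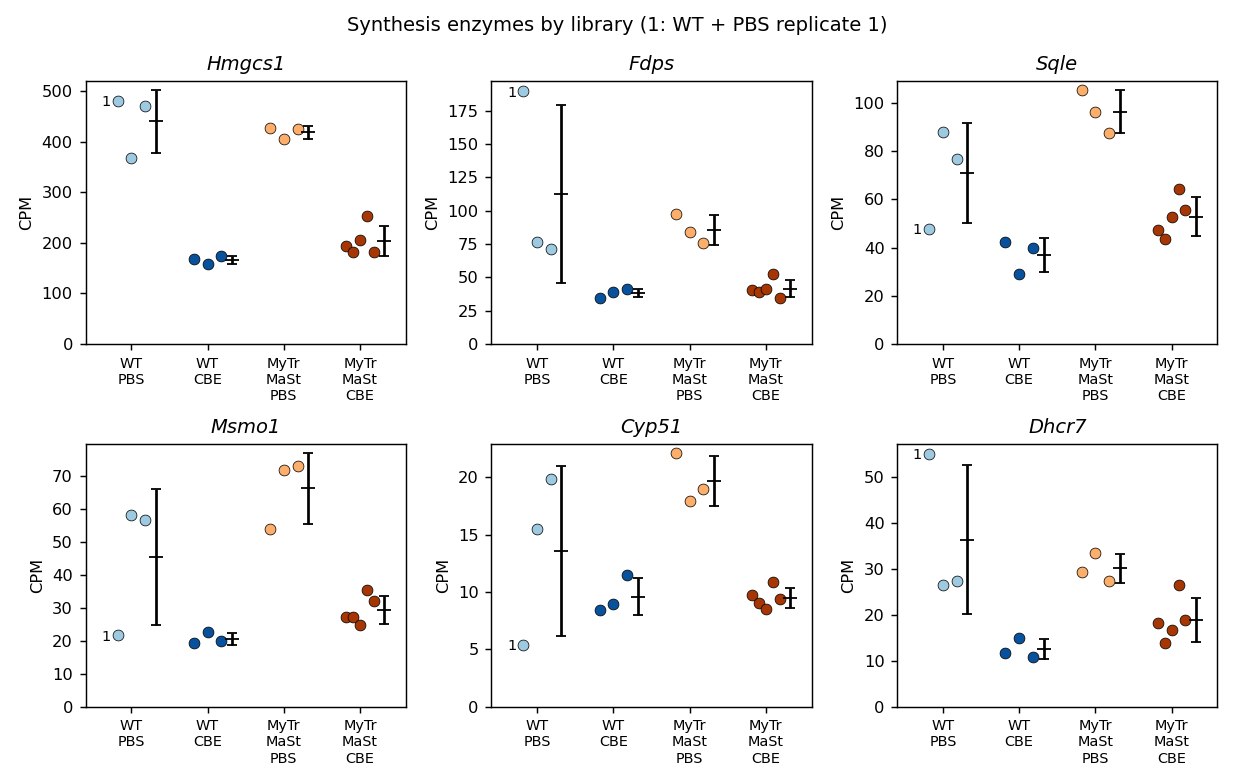
Levels in CPM (y axis) of 6 synthesis genes in each library of the 4 groups (x axis), with mean and SD beside the points and WT + PBS replicate 1 marked by 1. Hmgcs1 lay at 158 to 174 CPM in WT + CBE and 181 to 254 CPM in MyTrMaSt + CBE, below all PBS libraries, while the marked library was the highest of WT + PBS for Fdps and Dhcr7 and the lowest for Msmo1 and Cyp51.

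Leaving out WT + PBS replicate 1 raised the number of called members in WT from 15 to 22 (17 lower, 5 higher) and in MyTrMaSt from 10 to 18 (14 lower, 4 higher). The MyTrMaSt libraries were the same in both fits, which estimate the spread over all groups, while in WT the fold changes moved too, and 12090 genes were tested in place of 11852. Of all tested genes 4.05% were then called lower and 8.58% higher in WT, and 7.87% and 10.7% in MyTrMaSt. All 16 synthesis genes then lay below 0 in WT, from -1.48 to -0.08 with a median of -0.69, and 10 were called, 9 in MyTrMaSt. With only the WT libraries, 2 of 37 members were lower and 4 higher in WT, against 0.461% and 4% of all tested genes. The median of the synthesis genes in WT was -0.84 with Xist as a covariate and -0.87 with only the WT libraries.

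**Figure D3:**
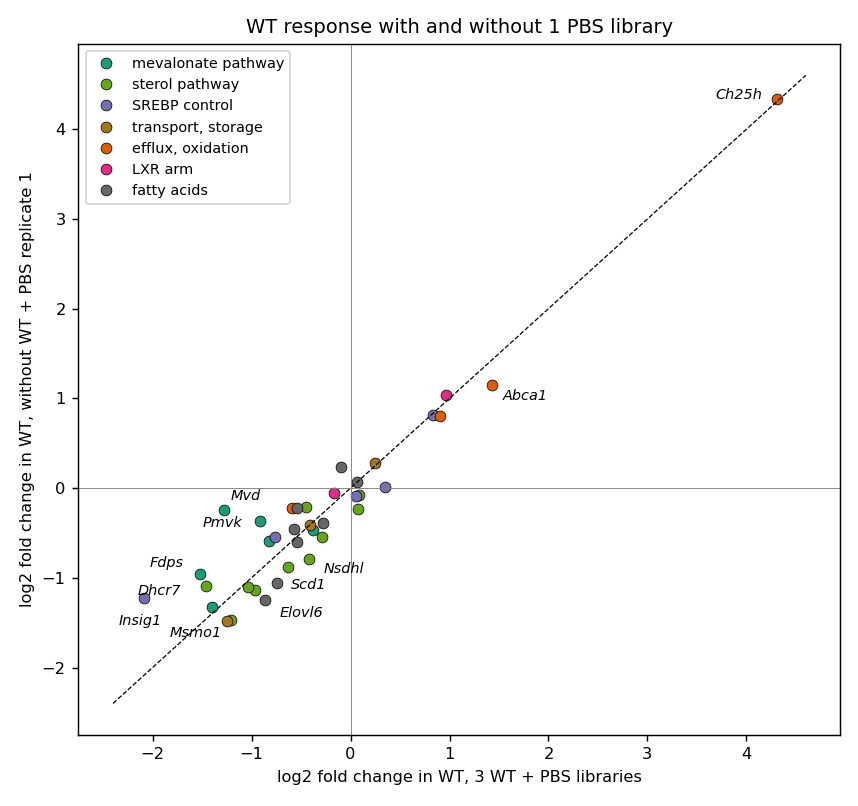
Log2 fold change of each tested member in WT with all 3 WT + PBS libraries (x axis) and without replicate 1 (y axis), coloured by role, with a dashed line where both are equal. Insig1, Mvd, Pmvk, Fdps and Dhcr7 moved toward 0, among others, and Msmo1, Elovl6, Scd1 and Nsdhl away from it.

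Among the genes that control SREBP, Insig1 (the sterol-regulated anchor of Scap, chromosome 5 from 28071363 to 28078662) had 54.1, 11.1 and 15.6 CPM in the WT + PBS group and 5.82, 4.69 and 6.03 CPM in the WT + CBE group. After PBS it had 6.91, 13.5 and 11.3 CPM in MyTrMaSt and after CBE 4.68, 9.39, 8.11, 12.8 and 5.87 CPM. WT + PBS replicate 1 was far above the rest, and the MyTrMaSt groups overlapped. Insig1 fell by 2.09 ± 0.53 (SE, FDR-adjusted p 0.0153) on the log2 scale in WT, or -1.23 (adjusted p 0.0298) without that library, and gave -0.40 ± 0.44 (SE, FDR-adjusted p 0.621) in MyTrMaSt. The difference between these responses was 1.69 with an interval of 0.14 to 3.24 (95%, adjusted p 0.35), and 0.83 (adjusted p 0.547) without WT + PBS replicate 1.

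Srebf1 (SREBP-1, which favours fatty acid genes and is itself a target of LXR, chromosome 11 from 60199089 to 60222581) went the other way. It had 68.6, 70.7 and 76.8 CPM in the WT + PBS group and 133, 132 and 120.5 CPM in the WT + CBE group. MyTrMaSt mice had 63.5, 71.3 and 53.5 CPM after PBS and 111, 86.0, 127, 82.2 and 110.0 CPM after CBE. All CBE libraries were above all PBS libraries, whatever the genotype. Srebf1 rose by 0.83 ± 0.18 (SE, FDR-adjusted p 0.00415) on the log2 scale in WT, 1.78-fold, and by 0.72 ± 0.16 (SE, FDR-adjusted p 0.00861) in MyTrMaSt, 1.64-fold. Its last exon shares 109 bases with Rai1 on the opposite strand, and 66 bases elsewhere are those of Mir6922. Srebf2 (SREBP-2, which favours cholesterol genes) had 19.9, 10.5 and 13.9 CPM in the WT + PBS group and 8.73, 5.63 and 10.2 CPM in the WT + CBE group. In MyTrMaSt it had 14.5, 13.5 and 6.34 CPM after PBS and 10.5, 10.9, 14.6, 18.2 and 14.5 CPM after CBE, with 12 to 51 counts per library. The WT groups were separate and the MyTrMaSt groups overlapped. Its log2 fold change was -0.76 ± 0.35 (SE, FDR-adjusted p 0.191) in WT and 0.24 ± 0.28 (SE, FDR-adjusted p 0.65) in MyTrMaSt. Insig2 gave 0.35 and -0.42 and Scap 0.06 and 0.16 in WT and MyTrMaSt, and neither was called. Leaving out WT + PBS replicate 1, Insig2 was 0.01 (adjusted p 0.977) in WT and was called in MyTrMaSt, at -0.41 (adjusted p 0.0321), while Scap was -0.08 (adjusted p 0.766) in WT.

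Of the transport genes none was called. Stard4, a carrier of cholesterol between membranes and a known SREBP target, had 1.80, 7.46 and 8.86 CPM in the WT + PBS group and 4.07, 1.88 and 1.81 CPM in the WT + CBE group. It had 10.01, 9.25 and 9.51 CPM in MyTrMaSt + PBS and 5.07, 7.13, 2.03, 3.45 and 2.35 CPM in MyTrMaSt + CBE, where the groups did not overlap. With 2 to 35 counts per library the log2 fold change was -1.24 ± 0.50 (SE, FDR-adjusted p 0.127) in WT, -1.48 (adjusted p 0.0298) without WT + PBS replicate 1, and -1.23 ± 0.37 (SE, FDR-adjusted p 0.0506) in MyTrMaSt, -1.22 (adjusted p 0.0104) without that library. Npc1 and Npc2, which export cholesterol from the lysosome, overlapped between PBS and CBE in both genotypes. Npc1 ranged over 28.2 to 30.7 CPM in WT + PBS, 28.9 to 38.4 CPM in WT + CBE, 19.3 to 28.7 CPM in MyTrMaSt + PBS and 28.4 to 41.5 CPM in MyTrMaSt + CBE, and gave 0.25 ± 0.21 (SE, FDR-adjusted p 0.523) in WT and 0.43 ± 0.18 (SE, FDR-adjusted p 0.17) in MyTrMaSt. The last exon of Npc1 shares 511 bases with Rmc1 on the opposite strand. Npc2 ranged over 6.75 to 9.39, 5.42 to 6.98, 6.34 to 9.67 and 6.26 to 10.9 CPM in the same groups and gave -0.41 in WT and -0.0039 in MyTrMaSt, where the change was within its SE.

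Beside the 4 efflux and oxidation genes, 6 of 8 microglial markers rose in each genotype, and their part in these values was not tested. Ch25h, the cholesterol hydroxylase that makes an oxysterol (chromosome 19 from 34473778 to 34475164), had 1.80, 1.93 and 1.27 CPM in the WT + PBS group and 42.5, 22.5 and 36.8 CPM in the WT + CBE group. It had 0.691, 1.58 and 2.47 CPM in MyTrMaSt + PBS and 26.9, 16.9, 13.8, 17.2 and 26.6 CPM in MyTrMaSt + CBE. PBS libraries held 2 to 7 counts and CBE libraries 34 to 146, with no overlap. None of the PBS libraries and all CBE libraries reached the cutoff of the filter, so a gene that was not high after CBE would not have been tested at these PBS levels, and its test is given as a description. Its last exon shares 159 bases with Gm26902 on the opposite strand. The log2 fold change was 4.30 ± 0.42 (SE, FDR-adjusted p 1.09e-06) in WT and 3.65 ± 0.39 (SE, FDR-adjusted p 7.51e-06) in MyTrMaSt, or 19.8-fold and 12.6-fold, the largest of all members in either genotype, and the low PBS counts make the fold imprecise. Between the CBE groups Ch25h differed by -0.75 (adjusted p 0.213), with an interval of -1.31 to -0.19, and the groups overlapped.

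Abca1, the pump that loads cholesterol on apolipoproteins (chromosome 4 from 53030787 to 53159895), had 2.71, 12.2 and 21.5 CPM in the WT + PBS group and 36.1, 33.3 and 38.6 CPM in the WT + CBE group. In MyTrMaSt its levels were 12.8, 12.7 and 14.8 CPM after PBS and 28.8, 19.5, 26.3, 20.2 and 30.9 CPM after CBE. All CBE libraries lay above all PBS libraries of their genotype. Abca1 rose in WT by 1.43 ± 0.33 (SE, FDR-adjusted p 0.0091), 1.14 (adjusted p 0.00262) without WT + PBS replicate 1, which held 3 counts. In MyTrMaSt it gave 0.91 ± 0.30 (SE, FDR-adjusted p 0.0682), and 0.92 (adjusted p 0.0032) without that library. Abcg1, a pump that passes cholesterol to lipoproteins (chromosome 17 from 31057675 to 31117988), had 30.7, 42.3 and 38.8 CPM in the WT + PBS group and 61.4, 70.9 and 81.3 CPM in the WT + CBE group. In MyTrMaSt it had 37.6, 37.5 and 30.6 CPM after PBS and 44.0, 78.9, 49.0, 76.8 and 41.1 CPM after CBE, where 2 libraries stood well above the other 3. It rose in WT by 0.90 ± 0.25 (SE, FDR-adjusted p 0.0254) and gave 0.71 ± 0.22 (SE, FDR-adjusted p 0.0569) in MyTrMaSt, both without overlap. Without WT + PBS replicate 1 the MyTrMaSt value was 0.71 (adjusted p 0.0156). Cyp46a1, the neuronal cholesterol hydroxylase, was not called, with -0.59 ± 0.22 (SE, FDR-adjusted p 0.0936) in WT and 0.03 ± 0.19 (SE, FDR-adjusted p 0.939) in MyTrMaSt. In WT it read 502 CPM in PBS replicate 1 against 265 and 272 CPM in the other 2, and its value without that library was -0.22 (adjusted p 0.399).

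In the LXR arm, Mylip, a ubiquitin ligase that marks lipoprotein receptors for breakdown (chromosome 13 from 45389742 to 45412022), had 17.1, 14.4 and 14.3 CPM in the WT + PBS group and 28.8, 30.0 and 28.9 CPM in the WT + CBE group. It had 23.5, 19.0 and 16.2 CPM in MyTrMaSt + PBS and 20.3, 22.9, 15.8, 18.2 and 17.6 CPM in MyTrMaSt + CBE. The WT groups were separate and the MyTrMaSt groups overlapped. Mylip rose in WT by 0.96 ± 0.21 (SE, FDR-adjusted p 0.00474) and gave -0.04 ± 0.18 (SE, FDR-adjusted p 0.917) in MyTrMaSt. After CBE all MyTrMaSt libraries lay below all WT libraries, with a log2 difference of -0.62 ± 0.17 (SE, FDR-adjusted p 0.079), and this difference had an adjusted p of 0.0322 without WT + PBS replicate 1 and of 0.0447 with only the CBE libraries. The test of the difference between the responses gave -1.003 with an interval of -1.61 to -0.40 (95%, adjusted p 0.145). Nr1h2 (LXR beta) overlapped in both genotypes, at 63.7 to 93.9 CPM in WT + PBS, 65.7 to 75.1 CPM in WT + CBE, 46.1 to 82.5 CPM in MyTrMaSt + PBS and 62.0 to 82.7 CPM in MyTrMaSt + CBE, with log2 fold changes of -0.17 in WT, -0.05 (adjusted p 0.919) without WT + PBS replicate 1, and 0.06 in MyTrMaSt.

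**Figure D4:**
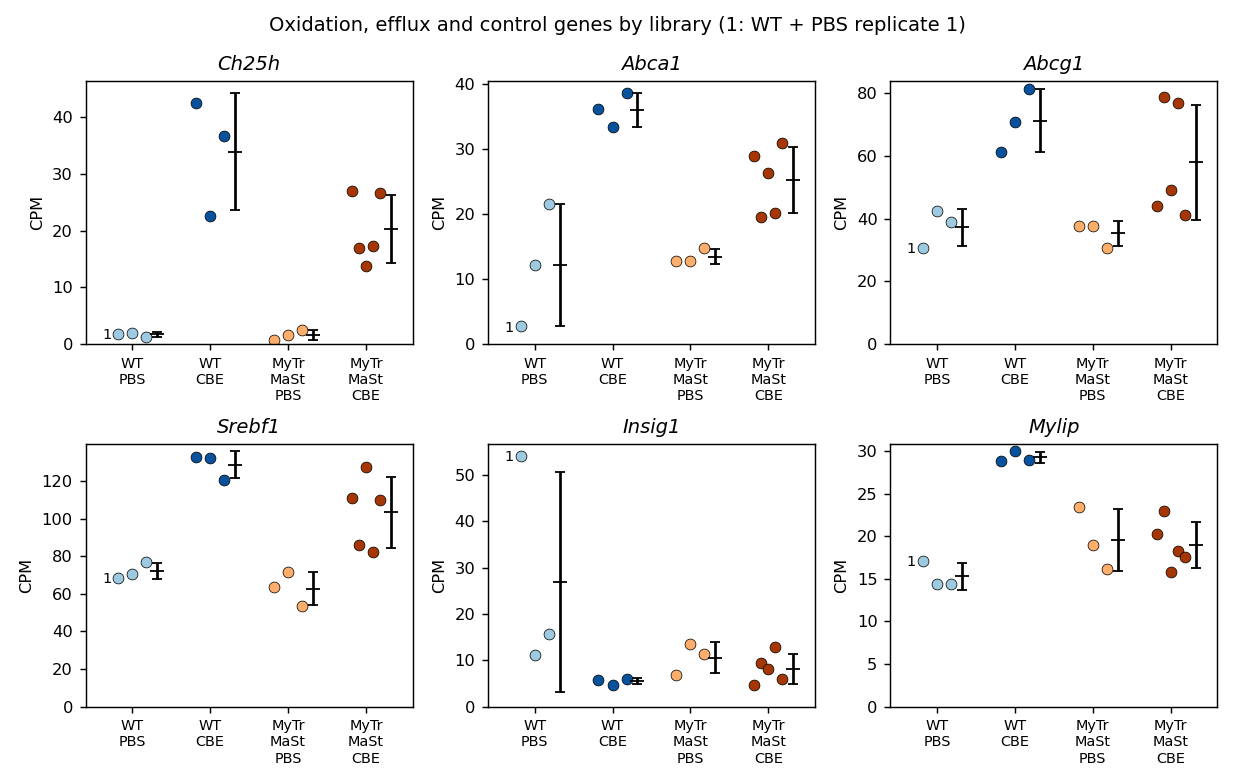
Levels in CPM (y axis) of 6 genes of oxidation, efflux and control in each library of the 4 groups (x axis), with mean and SD beside the points and WT + PBS replicate 1 marked by 1. Ch25h lay at 1.27 to 1.93 CPM in WT + PBS, 0.691 to 2.47 CPM in MyTrMaSt + PBS, 22.5 to 42.5 CPM in WT + CBE and 13.8 to 26.9 CPM in MyTrMaSt + CBE, and for Mylip the WT + CBE libraries lay above those of the other 3 groups.

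Among the 8 fatty acid genes, 2 fell in WT (Acly and Fads1) and 2 in MyTrMaSt (Scd2 and Elovl6), where 3.89% and 2.44% of all tested genes fell, and 7 lay below 0 in each genotype. When WT + PBS replicate 1 was left out, 5 fell in WT, with 6 below 0, and 3 fell in MyTrMaSt, against 4.05% and 7.87% of all tested genes. Acly, the ATP citrate lyase that supplies acetyl-CoA, had 144, 119.9 and 109 CPM in the WT + PBS group and 80.9, 92.5 and 75.9 CPM in the WT + CBE group. MyTrMaSt mice showed 115, 111 and 91.2 CPM after PBS and 86.9, 101, 83.1, 104 and 87.3 CPM after CBE. The WT groups did not overlap. Acly fell by 0.57 ± 0.16 (SE, FDR-adjusted p 0.0288) on the log2 scale in WT and gave -0.20 ± 0.14 (SE, FDR-adjusted p 0.424) in MyTrMaSt. Fads1, a desaturase of polyunsaturated fatty acids, had 244, 258 and 311 CPM in the WT + PBS group and 182, 185 and 192 CPM in the WT + CBE group. In MyTrMaSt it had 267, 279.5 and 305 CPM after PBS and 239.6, 228, 207, 269 and 232 CPM after CBE, with overlap. It fell by 0.54 ± 0.14 (SE, FDR-adjusted p 0.0171) on the log2 scale in WT and gave -0.27 ± 0.12 (SE, FDR-adjusted p 0.186) in MyTrMaSt.

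Scd2, the main stearoyl-CoA desaturase of the young brain, had 909.7, 1203 and 1228 CPM in the WT + PBS group and 953, 929 and 878 CPM in the WT + CBE group. Its MyTrMaSt levels were 1394, 1391 and 1675 CPM after PBS and 1111, 1050.0, 1010.0, 1206 and 1051 CPM after CBE. The WT groups overlapped through WT + PBS replicate 1, and the MyTrMaSt groups did not overlap. Scd2 fell by 0.45 ± 0.12 (SE, FDR-adjusted p 0.0282) on the log2 scale in MyTrMaSt and gave -0.28 ± 0.14 (SE, FDR-adjusted p 0.231) in WT, -0.39 (adjusted p 0.0211) without that library. Its last exon holds 61 bases shared with Mir5114 on the same strand. Elovl6, a fatty acid elongase, fell by 1.11 ± 0.33 (SE, FDR-adjusted p 0.047) on the log2 scale in MyTrMaSt and gave -0.87 ± 0.41 (SE, FDR-adjusted p 0.2) in WT, where WT + PBS replicate 1 held 6 counts and the value without it was -1.25 (adjusted p 0.00079). Scd1 gave -0.74 ± 0.28 (SE, FDR-adjusted p 0.109) in WT and -0.61 ± 0.24 (SE, FDR-adjusted p 0.132) in MyTrMaSt, and -1.06 (adjusted p 2.91e-05) and -0.61 (adjusted p 0.00117) without the same library. Fasn (fatty acid synthase) gave -0.10 and -0.49, Acaca (acetyl-CoA carboxylase) -0.54 and -0.18, and Fads2 0.07 and 0.36, and none of these 3 was called. The WT value of Fasn without the same library turned to 0.23 (adjusted p 0.818) and that of Acaca was -0.22 (adjusted p 0.658).

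Synthesis and efflux were also set side by side in each library. The mean log2 CPM of the 16 synthesis genes, relative to the WT + PBS mean, was -0.18, 0.08 and 0.10 in the WT + PBS group and -0.65, -0.58 and -0.63 in the WT + CBE group. In MyTrMaSt it was 0.21, 0.15 and 0.10 after PBS and -0.45, -0.48, -0.50, -0.27 and -0.42 after CBE. For Abca1, Abcg1 and Cyp46a1, the efflux and oxidation genes without Ch25h, the means were -0.39, 0.08 and 0.31 in the WT + PBS group and 0.66, 0.74 and 0.86 in the WT + CBE group. They were 0.016, -0.007 and -0.12 in MyTrMaSt + PBS and 0.38, 0.62, 0.50, 0.42 and 0.44 in MyTrMaSt + CBE. The summed CPM of the same 3 genes, in which Cyp46a1 was the most abundant, overlapped between PBS and CBE in both genotypes, with 319 to 535 CPM in WT + PBS, 312 to 351 CPM in WT + CBE, 242 to 298 CPM in MyTrMaSt + PBS and 281 to 376 CPM in MyTrMaSt + CBE. With Ch25h included, the sums were 397 ± 121 CPM in the WT + PBS group (SD, n = 3) and 369.6 ± 16.6 CPM in the WT + CBE group (SD, n = 3). Replicate 1 stood at 537 CPM in the former, above the 355 to 387 CPM of WT + CBE, and the other WT + PBS libraries at 321 and 333 CPM, below it. In MyTrMaSt these sums were 277.9 ± 29.3 CPM after PBS (SD, n = 3) and 336.5 ± 37.7 CPM after CBE (SD, n = 5), with overlap. In the log2 means PBS and CBE libraries were separate for both groups of genes in both genotypes, which is a description with no test. WT + PBS replicate 1 was split within synthesis, at 0.61 for the mevalonate genes against -0.28 and -0.33 in its group, and at -0.65 for the sterol genes against 0.30 and 0.35. For the sterol genes it lay below the WT + CBE libraries, which had -0.45, -0.35 and -0.47.

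**Figure D5:**
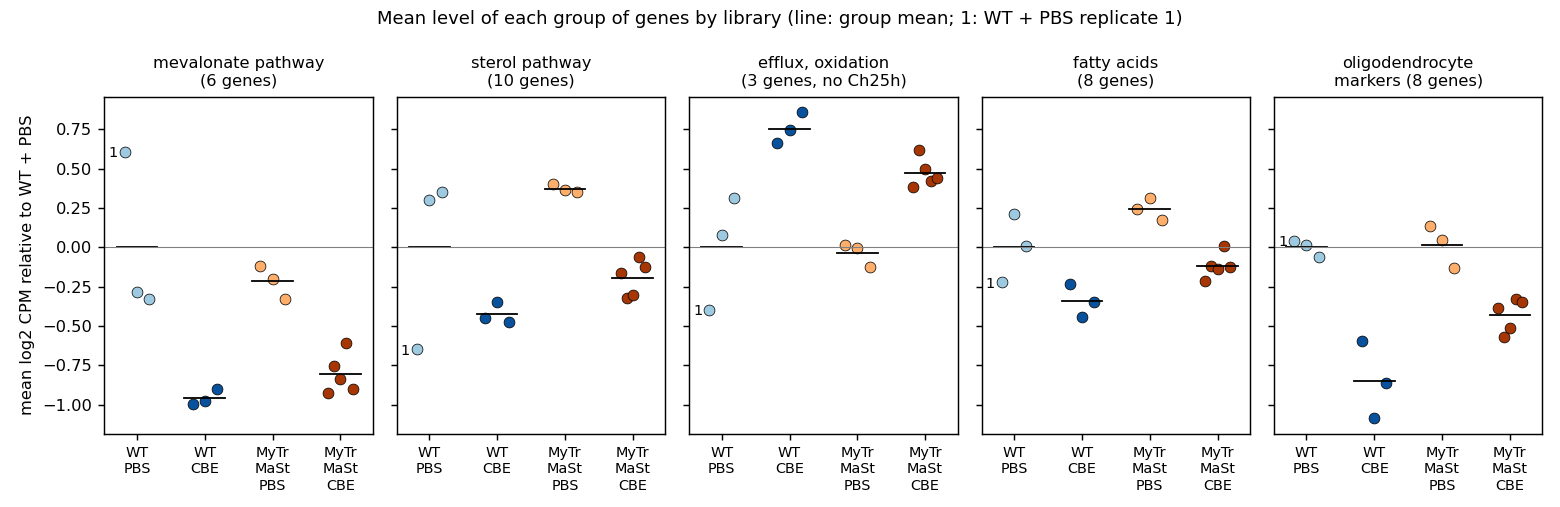
Mean log2 CPM relative to the WT + PBS mean (y axis) of 4 groups of members and of the oligodendrocyte markers in each library of the 4 groups (x axis), with the group mean as a line and WT + PBS replicate 1 marked by 1. Abca1, Abcg1 and Cyp46a1, the efflux and oxidation genes without Ch25h, lie between 0.66 and 0.86 in WT + CBE and between 0.38 and 0.62 in MyTrMaSt + CBE, and the marked library is split between the mevalonate genes (0.61) and the sterol genes (-0.65).

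Cell type markers moved along with these genes. Of the 8 oligodendrocyte markers, 7 fell in WT, with a median of -0.94, and 1 (Ermn) in MyTrMaSt, with a median of -0.31. Their summed level was 17117 to 20706 CPM in WT + PBS, 10370 to 13441 CPM in WT + CBE, 16959 to 20343 CPM in MyTrMaSt + PBS and 12829 to 17089 CPM in MyTrMaSt + CBE. In MyTrMaSt these sums overlapped between PBS and CBE. The mean log2 CPM of the same markers, relative to the WT + PBS mean, did not overlap there, with -0.13 to 0.14 after PBS and -0.57 to -0.33 after CBE. Microglial markers rose in both genotypes (6 of 8 in each), from 415 to 556 CPM in WT + PBS to 2004 to 2384 CPM in WT + CBE, and from 367 to 393 CPM in MyTrMaSt + PBS to 1140.0 to 1345 CPM in MyTrMaSt + CBE. Astrocyte markers rose for 3 of 6 in WT and 2 of 6 in MyTrMaSt, with summed levels of 2449 to 3153 CPM in WT + PBS, 3770.1 to 4069 CPM in WT + CBE, 3017 to 3429 CPM in MyTrMaSt + PBS and 4029 to 4346 CPM in MyTrMaSt + CBE. Neuronal markers fell for 2 of 7 in WT and 1 of 7 in MyTrMaSt. None of the choroid plexus and endothelial markers was called, and of the 4 markers of oligodendrocyte precursors 0 were called in WT and 1 rose in MyTrMaSt (Cspg4). When WT + PBS replicate 1 was left out, 4 of 6 astrocyte markers rose in each genotype, 7 of 8 microglial markers in WT and 6 of 8 in MyTrMaSt, in a fit that called 8.58% of all tested genes higher in WT and 10.7% in MyTrMaSt. Neuronal markers then fell for 3 of 7 in WT, and 2 fell and 1 rose in MyTrMaSt. In MyTrMaSt 1 of 3 endothelial markers then fell, and 2 of the 4 precursor markers fell and 1 rose, while in WT none of either was called. The part of these shifts in the members' results was not tested.

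Between the genotypes no member was called. After CBE, 2.54% of all tested genes differed and 0 of 38 members did, with 6 at an unadjusted p below 0.05, and neither DESeq2 nor limma voom called any. Of the synthesis genes 15 of 16 were higher in MyTrMaSt + CBE than in WT + CBE, with a median log2 difference of 0.19 against 0.02 over all tested genes. Cell type markers differed in the same comparison, with 8 of 8 oligodendrocyte markers higher in MyTrMaSt + CBE (median 0.39, 2 called) and 7 of 8 microglial markers lower (median -0.59, 3 called), and their part was not tested. For Hmgcs1 the difference was 0.28 with an interval of -0.02 to 0.59, for Sqle 0.50 (0.06 to 0.94) and for Abca1 -0.51 (-1.12 to 0.10). After PBS, where sex and genotype cannot be told apart, 0.186% of all tested genes and 0 of 38 members differed, with 5 at an unadjusted p below 0.05 and again 0 by the other tools. Insig1 was called lower in MyTrMaSt + PBS (-1.60, adjusted p 0.0489) when WT + PBS replicate 2 was left out. With all libraries its difference was -1.15, and without WT + PBS replicate 1, in which it was far above the rest, it was -0.30 (adjusted p 0.788). The interaction was called for 0.489% of all tested genes and for 0 members, with 5 at an unadjusted p below 0.05 and 0 by DESeq2 and limma voom. A p above the threshold does not show that the genotypes respond alike.

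Other genes of the same pathways were counted from lists. Of 17 further genes of sterol and lipid synthesis and of SREBP processing, 4 fell and 0 rose in WT and 3 fell and 0 rose in MyTrMaSt, where 3.89% and 2.44% of all tested genes fell. Without WT + PBS replicate 1, 5 fell in WT, and 6 fell and 1 rose in MyTrMaSt, in a fit that called 4.05% of all tested genes lower and 8.58% higher in WT, and 7.87% and 10.7% in MyTrMaSt. Aacs (acetoacetyl-CoA synthetase) fell by 0.85 ± 0.20 (SE, FDR-adjusted p 0.00895) on the log2 scale in WT and gave -0.50 ± 0.17 (SE, FDR-adjusted p 0.0816) in MyTrMaSt, -0.49 (adjusted p 0.0143) without that library, and Acss2 (acetyl-CoA synthetase) fell by 0.74 ± 0.18 (SE, FDR-adjusted p 0.0186) on the log2 scale in MyTrMaSt and gave -0.66 ± 0.23 (SE, FDR-adjusted p 0.0706) in WT. Of 13 tested further genes of efflux and oxidation, 1 fell and 3 rose in WT and 1 fell and 1 rose in MyTrMaSt, where 6.7% and 5.32% of all tested genes rose. Without WT + PBS replicate 1 these were 0 and 3 in WT and 1 and 3 in MyTrMaSt, where 8.58% and 10.7% of all tested genes rose. Tspo, an outer mitochondrial protein that binds cholesterol, rose by 2.67 ± 0.21 (SE, FDR-adjusted p 7.62e-08) in WT and 1.74 ± 0.20 (SE, FDR-adjusted p 1.56e-05) in MyTrMaSt. Cyp7b1, an oxysterol hydroxylase, rose in WT by 0.97 ± 0.20 (SE, FDR-adjusted p 0.004) and gave 0.41 ± 0.17 (SE, FDR-adjusted p 0.159) in MyTrMaSt. Cyp27a1, a sterol hydroxylase of mitochondria, fell by 1.11 ± 0.24 (SE, FDR-adjusted p 0.00767) on the log2 scale in MyTrMaSt and gave 0.07 ± 0.31 (SE, FDR-adjusted p 0.923) in WT. Abca7, a lipid transporter, fell by 0.98 ± 0.29 (SE, FDR-adjusted p 0.0393) on the log2 scale in WT and gave 0.01 ± 0.24 (SE, FDR-adjusted p 0.991) in MyTrMaSt, and without WT + PBS replicate 1 the WT value was -0.71 (adjusted p 0.09) and no longer called. Of 19 tested genes of fatty acid oxidation, 0 fell and 2 rose in WT and 0 fell and 1 rose in MyTrMaSt, near the 5.32% of all tested genes that rose there. Leaving out WT + PBS replicate 1 gave 3 that rose in WT and 4 in MyTrMaSt, against 8.58% and 10.7% of all tested genes. Acot1, a thioesterase, rose by 1.20 ± 0.16 (SE, FDR-adjusted p 4.51e-05) in WT and 0.72 ± 0.14 (SE, FDR-adjusted p 0.00455) in MyTrMaSt, and Acadl, an acyl-CoA dehydrogenase, rose in WT by 0.70 ± 0.18 (SE, FDR-adjusted p 0.017) and gave 0.17 ± 0.15 (SE, FDR-adjusted p 0.554) in MyTrMaSt. Slc25a20, the carnitine carrier, gave 0.53 and 0.23, and Acaa2, a thiolase, gave 0.05 and 0.59, and neither was called. Slc25a20 was called in WT (0.64, adjusted p 0.0298) and Acaa2 in MyTrMaSt (0.59, adjusted p 0.0216) without WT + PBS replicate 1.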

How the data were processed

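Bulk MARSseq libraries were made from the brains of 14 mice in 4 groups. The authors mapped reads to mm10 and kept those that mapped uniquely, and the submitters' processing notes name cutadapt and HTSeq. The deposited values used here are whole read counts per gene, and every listed gene reaches at least 6 counts in some library. Use of strand and of molecular identifiers and the annotation are not given in the sources used here. The other deposited tables were not used, namely counts that the authors divided by a factor per library, and the authors' own fold changes and p values for CBE versus PBS.

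Counts were tested in R 4.3.3 with edgeR 4.0.16 (filterByExpr, TMM, quasi-likelihood F test with 4 group means, all 14 libraries, 10 residual degrees of freedom, Benjamini-Hochberg adjustment). Intervals are 95%, from the SE and those degrees of freedom. The steps were tested on simulated data. RLE factors, library totals alone, DESeq2 1.42.0, limma 3.58.1 voom, other filters, only the groups compared, a block on the replicate number, the Xist level as a covariate and leaving out each library were the alternatives. Values per library are given for the 3 members with the smallest adjusted p in each role group, and for Srebf1 and Srebf2. Members and lists were chosen with earlier results of these data known. The search for near matches of the SREBP element, the last 3 printed promoters the counts of every list without WT + PBS replicate 1 and the efflux means without Ch25h were added after seeing the data. P values set differences between group means against the spread between these libraries. Positions are from GENCODE on mm10 and promoters from RefSeq on GRCm38.p6. Some genes are not reported here.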

Additional observations from a re-analysis of the deposited data

Results flagged for a closer look

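Of 39 members tested in the 5 MyTrMaSt + CBE libraries, 3 had a library far from the other 4 by Dixon's test (critical value 0.71), where chance flags about 1 in 20 groups. All 3 were in MyTrMaSt + CBE replicate 4, which also had 0 Xist counts against 18 to 39 in the others of its group, and, within that group, the lowest TMM factor (0.957) and the lowest mean correlation with the other libraries (0.961). Tm7sf2 was low in it, at 18.7 CPM against 26.9 to 30.0 CPM in the others (gap over range 0.722). Hsd17b7 was high, at 44.8 CPM against 17.3 to 22.7 CPM (0.803), and Sc5d was high, at 78.8 CPM against 58.2 to 62.0 CPM (0.818). None of the 3 was called in MyTrMaSt.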

How the results depend on the processing

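In WT the count of called members, 15, was 3 with the Xist level as a covariate (1.05% of all tested genes lower and 4.67% higher), 6 with only the libraries of the groups compared (0.461% and 4%) and 8 with the 2-fold threshold (1.21% and 5.2%), against 3.89% and 6.7% with all libraries. In MyTrMaSt the count, 10, was 16 with only the libraries of the groups compared (6.38% lower and 8.72% higher over all genes tested) and 6 with the 2-fold threshold (0.658% and 3.23%), against 2.44% and 5.32% with all libraries. The comparison after CBE, 0 members, gave 1 with only the libraries of the groups compared (Mylip), where 2.94% of all tested genes were lower and 0.486% higher. With the replicate block the count was 15 in WT (2.65% of all tested genes lower and 5.86% higher) and 6 in MyTrMaSt (0.548% and 2.63%), where Fdps, Cyp51, Scd2 and Elovl6 were lost, and 0 between the genotypes and for the interaction. Same-numbered PBS and CBE libraries did not deviate together (correlations from -0.125 to 0.0231) and did not all correlate best with their own number. This gives no sign that the replicate numbers pair mice, but with so few libraries per group it cannot exclude it. Leaving out each library gave 10 to 22 members in WT, lowest without WT + CBE replicate 2 (1.17% of all tested genes lower and 5.08% higher) and highest without WT + PBS replicate 1 (4.05% and 8.58%), and 6 to 18 in MyTrMaSt, lowest without MyTrMaSt + PBS replicate 1 (1.31% and 3.64%) and highest without WT + PBS replicate 1 (7.87% and 10.7%). It gave 0 to 1 in MyTrMaSt versus WT after CBE, 0 to 1 after PBS and 0 to 0 for the interaction. RLE factors, library totals alone, DESeq2, limma voom and the filters gave 13 to 17 members in WT, with 3.04% to 5.12% of all tested genes lower and 4.8% to 7.39% higher, and 7 to 13 in MyTrMaSt, with 1.87% to 3.51% lower and 4.45% to 6.54% higher. Of 570 values of called members under an alternative, 0 changed sign, 506 stayed called and 64 did not. Of 3715 values of members not called, 153 changed sign and 44 became called. Causes were not tested. Counts of members in this section include Ch25h where it was called. Depth limits Stard4, Fasn and Srebf2, with few counts per library.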
